A study of Mus musculus with 6 samples.

Results

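The transcription factors that define microglia were followed from whole hippocampus into RNA pulled down with ribosomes tagged to enrich for microglia. The pulldown also held RNA of other cells, as the markers below show. They were Spi1, Irf8, Irf5, Sall1, Mef2a, Mef2c, Runx1, Ikzf1 and Cebpa. They were chosen by gene symbol, as 9 of the 15388 genes in the deposited table, and each symbol was found on a row of its own. All 9 entered the test. Runx1 passed the limit on low values only through the pulled-down libraries and therefore had to differ, whereas the other 8 passed it in both fractions.

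Hippocampal RNA came from Cx3cr1-cre/ERT2+; NuTRAP+ mice about 3 months old, in which tamoxifen given daily for 5 days switched on the reporter. The study used males and females, and the labels do not give the sex of each animal. Cx3cr1, the fractalkine receptor gene, drives the inducible Cre in microglia and also in other cells that use this promoter, among them macrophages at the borders of the brain. After recombination NuTRAP puts a GFP-tagged ribosomal protein on the ribosomes of those cells, and translating ribosome affinity purification (TRAP) collects these ribosomes with an anti-GFP antibody. Animals 201, 207 and 208 each gave an Input library, made from cleared homogenate before the pulldown, and a Positive library, made from the bound ribosomes. Both fractions therefore had the same genotype, treatment and age, and a Cre-negative or untreated group was not analysed here.

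Spi1 encodes PU.1, an ETS factor without which microglia and other myeloid cells do not form, and PU.1 binds composite DNA elements together with IRF8. Runx1, Ikzf1 and Cebpa act earlier or more widely in blood cell development and are kept on in myeloid cells. Sall1 is a zinc finger factor that in the adult brain marks microglia and maintains their resting state, while Mef2a and Mef2c are MADS-box factors with roles both in microglia and in neurons. Irf5 acts below Toll-like receptors and drives inflammatory genes.

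The deposited genes held 14879734 to 17757918 reads per library. Whether the mates of a read pair were counted separately is not given in the sources used here, so these and the read numbers below may exceed the number of fragments. Levels are given as scaled reads, that is, reads divided by a size factor of the library so that libraries can be compared. All 6 microglia markers (Cx3cr1, P2ry12, Tmem119, C1qa, Aif1 and Csf1r) rose, and their summed level went from 2769 to 2920.1 scaled reads in Input to 58184 to 84729 in Positive. All 4 oligodendrocyte markers fell, with a median log2 fold change of -2.68. The 5 neuronal markers had a median of 0.077, with 1 higher and 0 lower, so neuronal RNA took a share of the Positive libraries close to that in Input. Input and Positive of an animal came from the same homogenate, so these values compare shares of RNA between fractions and not numbers of cells.

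All 9 factors rose in the Positive fraction, and none fell, at an adjusted p under 0.05 by the quasi-likelihood test of edgeR. Over all 15343 genes tested, 23.9% rose and 22.0% fell. Spi1, Ikzf1, Irf5, Runx1 and Irf8 rose by 17.3-fold to 27.6-fold, Sall1 by 8.7-fold and Cebpa by 5.86-fold, but Mef2a and Mef2c by only 1.71-fold each. Thus 7 of 9 passed 5-fold, which 3.75% of all genes did. In 9 of 9 the lowest Positive library was above the highest Input library, as it was in 28.9% of all genes. The median log2 fold change of the 9 was 4.11, beside -0.013 over all genes tested. Without Runx1 it was 3.62.

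**Figure D1:**
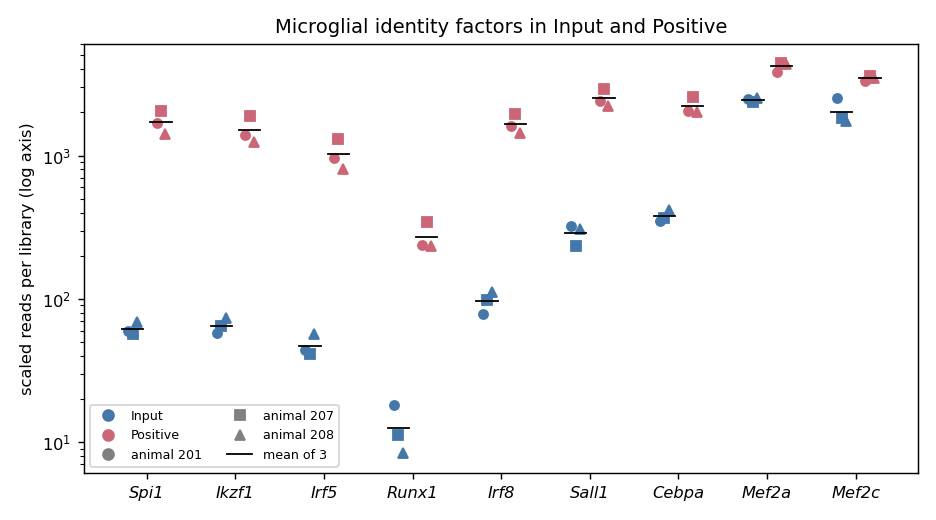
Scaled reads of each factor (log axis) in the 3 Input (blue) and 3 Positive (red) libraries, with marker shapes for animals 201, 207 and 208 and black lines for means of 3. Spi1 went from 57.1 to 69.1 in Input to 1416 to 2043 in Positive, while Mef2a started at 2363 to 2507.5 and reached 3847 to 4387.

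RefSeq start sites (GRCm38.p6) were matched for 8 of 9 factors, all but Spi1, and the 250 bases before each start were read. These 4 windows are printed to set a pair of IRF genes with high fold changes beside the MEF2 genes, which had the lowest, and capitals mark the motif matches. Irf8 (start 1, chr8:120736108-120736357, plus strand) and Irf5 (chr6:29526375-29526624, plus strand) are the IRF genes, and Mef2a (chr7:67372859-67373108, minus strand) and Mef2c (start 1, chr13:83503784-83504033, plus strand) the MEF2 genes.
Irf8: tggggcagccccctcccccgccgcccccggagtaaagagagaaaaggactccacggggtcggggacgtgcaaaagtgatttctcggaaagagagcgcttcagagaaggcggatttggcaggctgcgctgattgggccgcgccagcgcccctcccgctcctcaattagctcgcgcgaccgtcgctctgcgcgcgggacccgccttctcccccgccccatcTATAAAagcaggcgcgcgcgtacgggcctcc
Irf5: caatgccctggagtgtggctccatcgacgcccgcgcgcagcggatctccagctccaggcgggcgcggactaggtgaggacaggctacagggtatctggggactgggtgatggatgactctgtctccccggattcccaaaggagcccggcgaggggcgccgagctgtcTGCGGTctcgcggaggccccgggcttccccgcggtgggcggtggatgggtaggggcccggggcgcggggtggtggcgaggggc
Mef2a: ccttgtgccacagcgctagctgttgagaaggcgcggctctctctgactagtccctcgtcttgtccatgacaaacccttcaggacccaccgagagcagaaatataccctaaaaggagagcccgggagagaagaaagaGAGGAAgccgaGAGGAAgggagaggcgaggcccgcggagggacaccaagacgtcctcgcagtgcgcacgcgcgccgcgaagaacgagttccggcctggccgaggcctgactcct
Mef2c: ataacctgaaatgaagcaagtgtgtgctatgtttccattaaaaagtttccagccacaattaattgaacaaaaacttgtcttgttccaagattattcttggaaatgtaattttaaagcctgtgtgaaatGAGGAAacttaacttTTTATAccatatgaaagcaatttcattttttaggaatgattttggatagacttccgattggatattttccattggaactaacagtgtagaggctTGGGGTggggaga
The Irf8 window was 67.2% GC with 29 CpG, the Irf5 window 72.0% with 25 and the Mef2a window 61.6% with 21. The Mef2c window had only 33.6% GC and 1 CpG, below the median of all promoters of this length of 52.4% and 6. Low values were also found at a strongly enriched factor, since start 2 of Ikzf1 had 47.6% GC and 1 CpG.

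Both strands of these windows were searched for a PU.1 core (GAGGAA), an ETS-IRF composite element (GGAANNGAAA), an IRF repeat (GAAANNGAAA), a RUNX motif (TGNGGT), a MEF2 motif (CTANNNNTAG), a C/EBP motif (TTGCNNAA) and a TATA box (TATAAA). The composite element holds GGAA, the end of the PU.1 core, and shares its last bases with the IRF repeat, so matches to these 3 can overlap. GAGGAA was found in 23.3% of all 32851 promoters of this length and TGNGGT in 40.1%, so a match to either is common. The Mef2a window held GAGGAA at 114 to 109 and at 103 to 98 bases before the start, and the Mef2c window held it at 122 to 117. A further start site of Mef2c had it at 186 to 181 bases before the start, and a second start of Runx1 had it on the opposite strand at 46 to 41. In Irf5 the capitals mark a RUNX motif, TGCGGT, at 83 to 78, and a further start of Irf8 had one on the opposite strand at 197 to 192. Irf8 had a TATA box at 31 to 26 bases before its start and Cebpa at 30 to 25. A match to TATAAA anywhere in the window, on either strand, was found in 12.4% of all promoters. The Mef2c window further held TGGGGT, a RUNX motif, at 13 to 8 and TATAAA on the opposite strand at 107 to 102. Start 2 of Mef2c also had TATAAA on the opposite strand, at 22 to 17. The composite element, the IRF repeat, the MEF2 motif and the C/EBP motif, present in 2.3%, 2.98%, 3.2% and 9.56% of all promoters, had 0 matches in the windows of the 8 factors. For Sall1 and Ikzf1 the search gave 0 matches to any of the 7 motifs. These matches describe letters in a short window and not binding.

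Spi1 (ENSMUSG00000002111, chr2:91082390-91115756 in build mm10) was the most enriched of the 9. Input libraries of animals 201, 207 and 208 had 60.2, 57.1 and 69.1 scaled reads, and their Positive libraries had 1684, 2043 and 1416. The fractions were far apart and each was narrow. Its log2 fold change was 4.79 ± 0.16 (SE, n = 3 per fraction, adjusted p = 2.09e-10), rank 42 of 15343 genes.

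Irf8 and Irf5, interferon regulatory factors, behaved alike in direction and not quite in size. Irf8 (ENSMUSG00000041515, chr8:120736358-120756694), the partner of PU.1, had 78.8, 98.1 and 111.8 scaled reads in Input and 1598, 1963 and 1427 in Positive, a log2 fold change of 4.11 ± 0.15 (SE, adjusted p = 4.09e-10). Irf5 (ENSMUSG00000029771, chr6:29526625-29541871) had 43.7, 41.2 and 56.7 in Input and 962, 1310.2 and 807 in Positive, a change of 4.45 ± 0.20 (adjusted p = 2.02e-09). Animal 208 had the highest Input and the lowest Positive value of both genes, and the fractions did not overlap.

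Ikzf1 and Runx1 are hematopoietic factors. Ikzf1 (ENSMUSG00000018654, chr11:11685003-11772926), which encodes the zinc finger protein Ikaros, had 57.9, 64.6 and 73.2 scaled reads in Input and 1392, 1888 and 1248 in Positive, for a log2 fold change of 4.53 ± 0.17 (SE, adjusted p = 5.16e-10). Runx1 (ENSMUSG00000022952, chr16:92601466-92826149) rested on the fewest reads, with 18, 12 and 8 raw reads in Input, or 18.3, 11.2 and 8.36 scaled reads, and 236, 343 and 233 in Positive. Its change of 4.41 ± 0.27 (adjusted p = 4.11e-08) had the widest error of the 9. Both genes are also active in lymphocytes and monocytes. Of 6 lymphocyte markers only Cd79b and Cd4 were in the table, both passed only through Positive, and their sum went from 3.75 to 16.3 scaled reads in Input to 86.9 to 149.8 in Positive. Of 7 monocyte and neutrophil markers only Ly6c2 was in the table, with 2.09 to 12.2 scaled reads in Input and 20.7 to 24.6 in Positive. In the study, tissue was collected some weeks after tamoxifen so that labelled circulating monocytes could be replaced. The part of such cells in the rise of Ikzf1 and Runx1 was not tested.

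Sall1 and Cebpa rose by less and, per length, started higher. Sall1 (ENSMUSG00000031665, chr8:89027235-89044162) had 321, 232 and 309.5 scaled reads in Input and 2402, 2894 and 2213 in Positive, for a log2 fold change of 3.12 ± 0.13 (SE, adjusted p = 1.21e-09). Cebpa (ENSMUSG00000034957, chr7:35119293-35121928), a basic leucine zipper factor of myeloid development, had 349, 365 and 420.1 in Input and 2035, 2579.8 and 2024 in Positive, for a change of 2.55 ± 0.12 (adjusted p = 2.02e-09). Neither gene came near an overlap between fractions, and both ranked below the 5 factors above, at 391 and 510 of 15343 genes.

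Mef2a and Mef2c had high read numbers in Input and rose least. Mef2a (ENSMUSG00000030557, chr7:67231163-67372858) had 2482, 2363 and 2507.5 scaled reads in Input and 3847, 4387 and 4363 in Positive, for a log2 fold change of 0.78 ± 0.08 (SE, adjusted p = 5.12e-06). Mef2c (ENSMUSG00000005583, chr13:83504034-83667080) had 2522, 1816 and 1735 in Input and 3332, 3572 and 3494 in Positive, for a change of 0.78 ± 0.12 (adjusted p = 0.00019). The high Mef2c value in the Input of animal 201 was still below all 3 Positive values, and it made that animal's rise the smallest. Both genes are used by neurons, whose 5 markers changed by 0.03 to 0.34 on the log2 scale. Mef2c is also used by endothelial cells, whose 4 markers all rose, by a median of 1.97, from a sum of 953 to 1250.4 scaled reads in Input to 2846 to 5706 in Positive. How much of either gene came from these cells was not tested.

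Within each animal, each of the 9 factors was higher in Positive than in Input, in 3 of 3 animals. The log2 ratio of Positive over Input (pseudocount of 1 scaled read) was 4.78, 5.14 and 4.34 for Spi1, 2.54, 2.82 and 2.27 for Cebpa and 0.63, 0.89 and 0.80 for Mef2a, in animals 201, 207 and 208. The median ratio of the 6 microglia markers was 4.60, 4.88 and 4.36 in the same animals, which gives a scale for a gene of these cells. Spi1 differed from that median by 0.14 ± 0.141 (mean ± SD, n = 3) and Ikzf1 by -0.12 ± 0.142, both within the spread between animals. Irf5 at -0.21 ± 0.314 and Runx1 at -0.25 ± 0.653 were likewise no farther from it than their SD. Irf8 was below it by more than its SD, at -0.51 ± 0.216. Sall1 at -1.49 ± 0.227, Cebpa at -2.07 ± 0.0174, Mef2c at -3.82 ± 0.433 and Mef2a at -3.84 ± 0.244 were far below the markers in all 3 animals. With 3 animals the smallest two-sided p of an exact permutation test is 0.25, so these differences are given as a description.

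**Figure D2:**
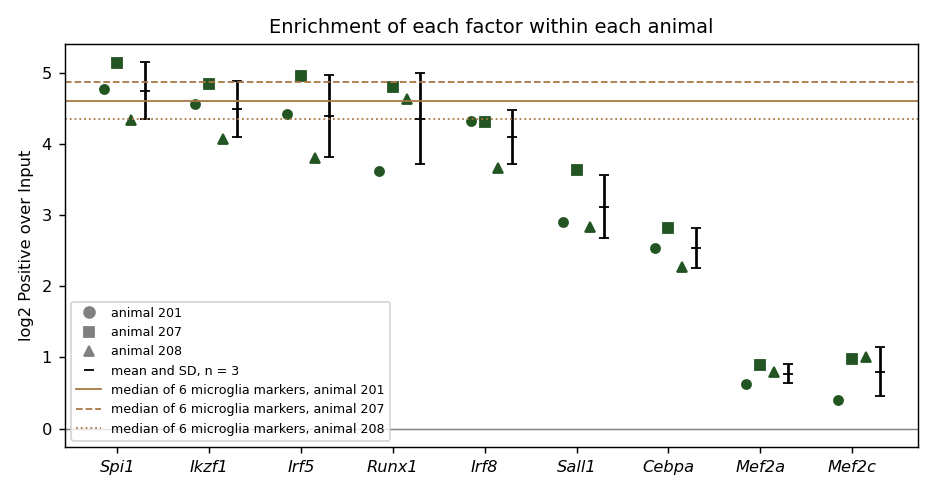
Log2 ratio of Positive over Input for each factor within animals 201, 207 and 208 (green symbols), with the mean and SD (n = 3), and the median ratio of the 6 microglia markers of each animal as brown lines. Spi1, Ikzf1, Irf5 and Runx1 lie about the marker lines at 4.36 to 4.88, and Mef2a and Mef2c have means of 0.77 and 0.80.

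All 36 pairs of factors were compared within animals on the same log2 ratios. Spi1 exceeded Ikzf1 by 0.26 ± 0.0341 (mean ± SD, n = 3) and Irf8 by 0.65 ± 0.185, in 3 of 3 animals each. Sall1 exceeded Cebpa by 0.58 ± 0.23, also in 3 of 3. Mef2a and Mef2c differed by -0.021 ± 0.227, less than the spread between animals. The gap between Spi1 and Mef2a was 3.98 ± 0.383. Runx1 had no fixed place among the strongly enriched factors, since Spi1 exceeded it in 2 of 3 animals and by 0.39 ± 0.738. These values too are a description.

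The order of the levels per length changed in part between fractions. Per kb of exon, Input had most Mef2a at 166.9 ± 5.27 scaled reads per kb (mean ± SD, n = 3), then Cebpa at 143 ± 14.2, Mef2c at 129 ± 27.5, Sall1 at 54.6 ± 9.19, Spi1 at 23.0 ± 2.31, Irf5 at 16.3 ± 2.87, Irf8 at 13.6 ± 2.35, Ikzf1 at 11.3 ± 1.32 and Runx1 at 1.05 ± 0.425. The libraries of Cebpa and Mef2c overlapped, as did those of Irf5 and Irf8 and of Irf8 and Ikzf1, whereas the other neighbours in this order did not. In Positive, Cebpa came first at 839.5 ± 120.5 scaled reads per kb, ahead of Spi1 at 636 ± 116.8. Their libraries narrowly missed overlap, with a lowest Cebpa value of 767.8 and a highest Spi1 value of 758.2. Then followed Sall1 at 475 ± 66.8, Irf5 at 353 ± 88.7, Mef2a at 286 ± 20.8, Ikzf1 at 261 ± 58.1, Irf8 at 236 ± 38.8 and Mef2c at 220.5 ± 7.8. From Spi1 down to Mef2c every gene overlapped with the next. Runx1 was last in both fractions, at 22.5 ± 5.21 in Positive. Cebpa was thus highest per kb of annotated exon in the Positive fraction, although 5 others had a fold change above 17-fold against its 5.86-fold. Lengths covered all annotated exons of a gene, 2636 bases for Cebpa and 2695 for Spi1, but 14681 for Mef2a and 15715 for Mef2c. Transcripts in use can be shorter, so the order between genes may depend on this choice.

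**Figure D3:**
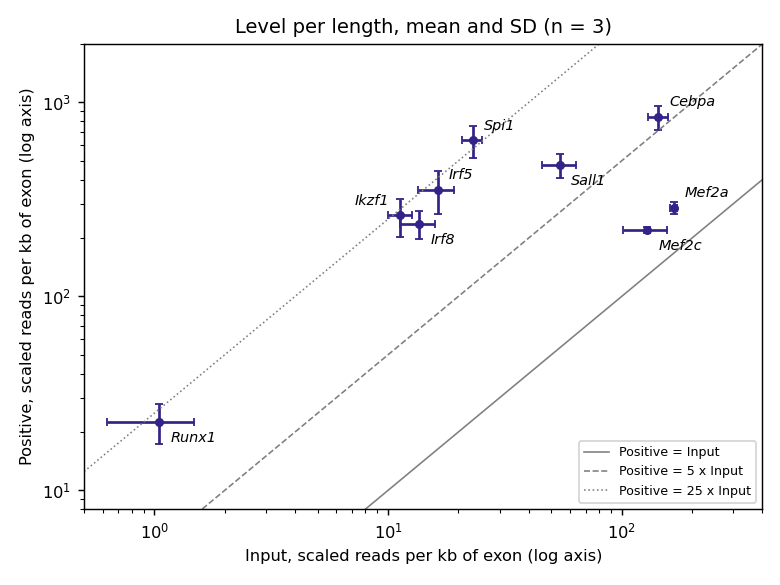
Mean and SD (n = 3) of each factor's scaled reads per kb of exon in Input and in Positive, both on log axes, with lines for equal levels and for 5-fold and 25-fold higher Positive. Spi1, Ikzf1, Irf5, Irf8 and Runx1 lie near the 25-fold line, Cebpa and Sall1 above the 5-fold line, and Mef2a and Mef2c just above equality.

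Of the genes nearest to a factor over all 6 libraries, measured as the distance between log2 profiles centred on each gene's mean, Spi1 had Pik3ap1 at 0.138, Fcrls at 0.14 and Fcgr3 at 0.148. Fcgr3 encodes a receptor for immunoglobulin G and Fcrls an Fc receptor-like protein of microglia. Their log2 fold changes were 4.82 or 4.83. Mef2a was nearest to Acp2 at 0.113, Arsb at 0.116 and Ap3b1 at 0.134, with log2 fold changes of 0.73 to 0.82. For Mef2c the nearest were Arl4c at 0.182, Ptgfrn at 0.185 and Pacs1 at 0.207, each with its smallest rise in animal 201, as Mef2c had. With 6 libraries in 2 fractions these distances mostly compare fold changes.

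Relatives of the 9 factors had smaller fold changes than the factors themselves. Among the 15 other ETS factors in the table, 12 rose and 1 fell, with a median log2 fold change of 0.62, far from the 4.79 of Spi1. Of the most abundant, Etv5 rose by 0.62 ± 0.098 (SE), Ets2 by 0.39 ± 0.094 and Etv3 by 0.31 ± 0.094, while Etv1 had -0.12 ± 0.076 (adjusted p = 0.202). Etv3 lost its call without the Input library of animal 208 (adjusted p = 0.0817) or the Positive library of animal 207 (0.0612), under total count scaling (0.0577) and by limma (0.0598), and Etv1 was called lower under total count scaling (0.0417). Elk1, which acts in the response to growth factors, fell by 0.29 on the log2 scale (SE 0.10, adjusted p = 0.0377), a call lost without any of 5 of the 6 libraries. The 4 that passed 5-fold, named after their values were seen, were Fli1 at 3.90 ± 0.19, Elf4 at 3.54 ± 0.24, Ets1 at 2.76 ± 0.17 and Elk3 at 2.46 ± 0.15. Several of these are known from endothelial cells, whose markers rose as given above, and the part of those cells was not tested.

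Of the IRF family, 6 other members were in the table and all 6 rose, with a median log2 fold change of 0.94, against 4.11 and 4.45 for Irf8 and Irf5. Of these, 1 passed only through Positive and had to differ. Irf1, induced by interferon, rose by 1.42 ± 0.14 (SE), Irf9 by 1.07 ± 0.17, Irf2 by 0.79 ± 0.12 and Irf3 by 0.48 ± 0.15. Irf3 lost its call without the Input library of animal 207 (adjusted p = 0.101) or the Positive library of animal 201 or 207.

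Sall3 rose by 1.37 ± 0.16 (SE, adjusted p = 2e-05), and Sall2, found widely in neural cells, had 0.016 ± 0.081 (adjusted p = 0.892), beside 3.12 for Sall1. Mef2d, the remaining MEF2 factor tested, had 0.23 ± 0.095 and an adjusted p of 0.0639, or 0.0366 with the animal as a block and 0.0432 without the Positive library of animal 201. Mef2b was in the table at 16 ± 6.39 scaled reads (SD, n = 3) in Input and 24.2 ± 4.09 in Positive, under the limit for the test.

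In the RUNX complex, Cbfb, the subunit that RUNX proteins need to bind DNA firmly, rose by 0.76 ± 0.12 (SE, adjusted p = 0.000169). Its scaled reads went from 394 ± 19.9 (SD, n = 3) to 669 ± 95.1. Runx2, a factor of bone formation, fell by 0.64 (SE 0.18, adjusted p = 0.0112), a call lost without the Input library of animal 207 (adjusted p = 0.0745). The corepressors Runx1t1, Cbfa2t2 and Cbfa2t3 had -0.15 ± 0.12, -0.0054 ± 0.10 and 0.15 ± 0.12 and were not called.

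The other Ikaros genes went the other way from Ikzf1. Of 3 tested, Ikzf2 fell by 0.92 (SE 0.26, adjusted p = 0.012) and Ikzf4 fell by 0.59 (SE 0.16, adjusted p = 0.0095), while Ikzf5 had -0.18 ± 0.11 (adjusted p = 0.197). Both were lower in 3 of 3 animals. Without the Input library of animal 208 both calls were lost, with -0.62 (adjusted p = 0.0867) for Ikzf2 and -0.46 (0.0613) for Ikzf4. Of 4 C/EBP genes beside Cebpa, 3 rose, with a median log2 fold change of 0.70 over the 4. Cebpg and Cebpd rose by 0.82 each (SE 0.099 and 0.13) and Cebpb by 0.57 (SE 0.14), and Ddit3, a stress-response member, had -0.24 ± 0.14 (adjusted p = 0.198).

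**Figure D4:**
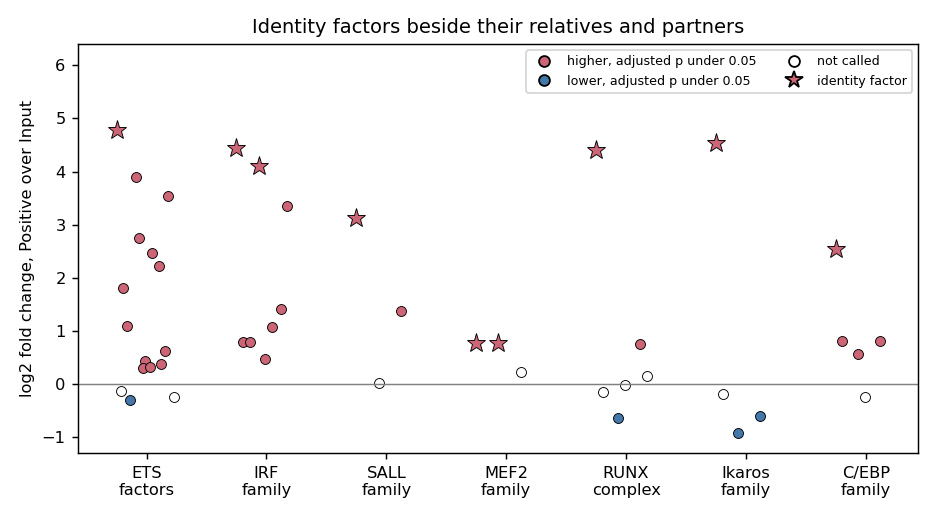
Log2 fold change of Positive over Input (edgeR) for the 9 factors (stars) and for the tested members of their families or complexes (circles), red for genes that rose, blue for genes that fell and white for genes not called. In each column the stars lie above every circle, and Fli1 at 3.90 is the highest circle, below Spi1 at 4.79.

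Genes that act with the factors followed them unevenly. Of 9 genes that carry signals to IRF5, 7 rose and 0 fell, with a median log2 fold change of 2.42. Tlr9 and 5430427O19Rik passed only through Positive and had to differ, and of the other 7 genes 5 rose, with a median of 1.91. Among the most abundant, Unc93b1, the chaperone of endosomal Toll-like receptors, rose by 4.05 ± 0.14 (SE, adjusted p = 3.41e-10) from 249.8 to 4126 scaled reads. Tlr7, a receptor for single-stranded RNA, rose by 4.47 ± 0.26, and Slc15a4, a lysosomal transporter that recruits the IRF5 adaptor, by 0.82 ± 0.12. Irak1, a kinase shared by many cell types, had -0.0096 ± 0.095 (adjusted p = 0.944).

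For the NuRD complex, a chromatin remodeller that SALL1 binds, changes were small. Of 13 subunits 8 rose and 2 fell, with a median log2 fold change of 0.26 and none past 0.64. Chd4 rose by 0.48 ± 0.08 (SE), Rbbp4 by 0.47 ± 0.075 and Gatad2b by 0.24 ± 0.078, and Rbbp7 had 0.13 ± 0.077 (adjusted p = 0.194). The call of Gatad2b was lost without any Input library or without the Positive library of animal 207, at adjusted p of 0.0532 to 0.092, under total count scaling (0.0954) and by limma (0.105). Chd3 fell by 0.32 (SE 0.096) and Mbd3 by 0.28 (SE 0.079), and both calls were lost without the Input library of animal 208 (adjusted p = 0.0959 and 0.0529). Chd3 was also lost without the Input library of animal 201 or the Positive library of animal 207, and by limma (0.0513). Without the Input library of animal 208, 5 subunits rose and 0 fell.

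The 4 class IIa histone deacetylases, which bind and repress MEF2 proteins, gave 0 calls by edgeR. Hdac5 had 0.22 ± 0.089 (SE, adjusted p = 0.0627), Hdac4 -0.21 ± 0.083 (0.0504), Hdac7 -0.39 ± 0.17 (0.0816) and Hdac9 0.10 ± 0.11 (0.467). With the animal as a block, 1 rose and 2 fell: Hdac5 at an adjusted p of 0.0263, Hdac4 at 0.0491 and Hdac7 at 0.00809. Leaving out a Positive library also gave calls, for Hdac7 without that of animal 201 (0.00516) and for Hdac5 and Hdac4 without that of animal 208 (0.0158 and 0.0283), as did leaving out the Input library of animal 201 for Hdac5 (0.0298).

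Known targets of PU.1 rose, as did the 6 microglia markers, whose median log2 fold change was 4.63. All 10 targets rose, by 3.36 to 5.02 on the log2 scale with a median of 4.27, where 23.9% of all genes rose. Of these targets 3 passed only through Positive and had to differ, and Csf1r and Aif1 also stand among the microglia markers. Csf1r, the receptor that microglia need to survive, rose by 4.63 ± 0.14 (SE), Itgam by 4.72 ± 0.15, Tyrobp by 4.32 ± 0.15 and Aif1 by 4.16 ± 0.15. All 7 genes known to depend on Sall1 in microglia rose, with a median log2 fold change of 4.71, beside 3.12 for Sall1. P2ry12 and Tmem119 of this list are also microglia markers. Tmem119 rose by 4.63 ± 0.15, Olfml3 by 4.43 ± 0.18 and P2ry12, a purine receptor, by 4.80 ± 0.15. Control of these genes by PU.1 or SALL1 was not tested.

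Macrophages at the brain borders also use Cx3cr1 and carry most of these factors, though Sall1 is known to be low or off in them. Their 6 markers (Mrc1, Cd163, Lyve1, F13a1, Pf4 and Ms4a7) all rose, 3 of them having passed only through Positive, and their sum went from 168 to 232 scaled reads in Input to 2440.4 to 5251 in Positive. None of the 6 was at 0 in any library. The part of these cells in the rise of Spi1, Irf8, Irf5, Runx1, Ikzf1 and Cebpa was not tested.

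Beside the 9 factors, 19 other factors of macrophages and microglia were tested, of which 15 rose and 0 fell, with a median log2 fold change of 0.87. Maf rose by 2.24 ± 0.13 (SE) and Smad3, which carries TGF-beta signals, by 0.57 ± 0.082. Bhlhe40 had 0.054 ± 0.088 (adjusted p = 0.646). Hhex, Lyl1, Prdm1 and Batf, named after their values were seen, passed 5-fold, and Hhex, Prdm1 and Batf passed only through Positive. Batf had 3, 0 and 0 raw reads in Input and was at least 9.23-fold higher in Positive, taken against 3 reads per library.

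Factors of the other hippocampal lineages differed in direction. All 7 oligodendrocyte factors fell, with a median log2 fold change of -1.87, although Nkx2-2 passed only through Input and had to differ. Among them were Olig1 (-2.05 ± 0.13, SE), Sox10 (-1.98 ± 0.16), Olig2 (-1.87 ± 0.18) and Myrf (-1.37 ± 0.11). Of 7 astrocyte factors 4 fell and 0 rose, with a median of -0.60. Sox2 fell by 0.60 (SE 0.10) and Id4 fell by 0.79 (SE 0.12), while Nfia at -0.15 ± 0.098 and Nfib at -0.021 ± 0.086 were not called. Of 11 neuronal factors 1 rose and 1 fell, and the median was -0.039. Zbtb18 at -0.27 ± 0.11 and Neurod2 at -0.20 ± 0.11 missed the threshold (adjusted p = 0.0601 and 0.148) but passed with the animal as a block (0.0117 and 0.039) or without the Positive library of animal 208 (0.00187 and 0.00174). Neurod6 had 0.11 ± 0.10 and Bcl11b 0.062 ± 0.096. The factor that rose, named after its values were seen, was Prox1 at 0.35 ± 0.13 (adjusted p = 0.0389), a call lost without the Positive library of animal 208 or the Input library of animal 201 or 207, under total count scaling, with the filter of 100 reads and by limma. Mef2a and Mef2c, at 0.78, lay above every neuronal factor tested, while 8 of the 9 endothelial factors rose and 0 fell, with a median of 1.49. Sox7 passed only through Positive and had to differ, and the other 8 had a median of 1.30.

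Endothelial factors rose with a spread between animals, with medians of 1.53, 1.80 and 0.71 on the log2 scale in animals 201, 207 and 208. Tal1 rose by 2.08 ± 0.21 (SE), Sox18 by 1.89 ± 0.23, Gata2 by 1.62 ± 0.29 and Epas1, a factor of the response to low oxygen, by 0.65 ± 0.12. The 4 endothelial markers had medians of 2.21, 2.17 and 1.20 in the same animals.

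**Figure D5:**
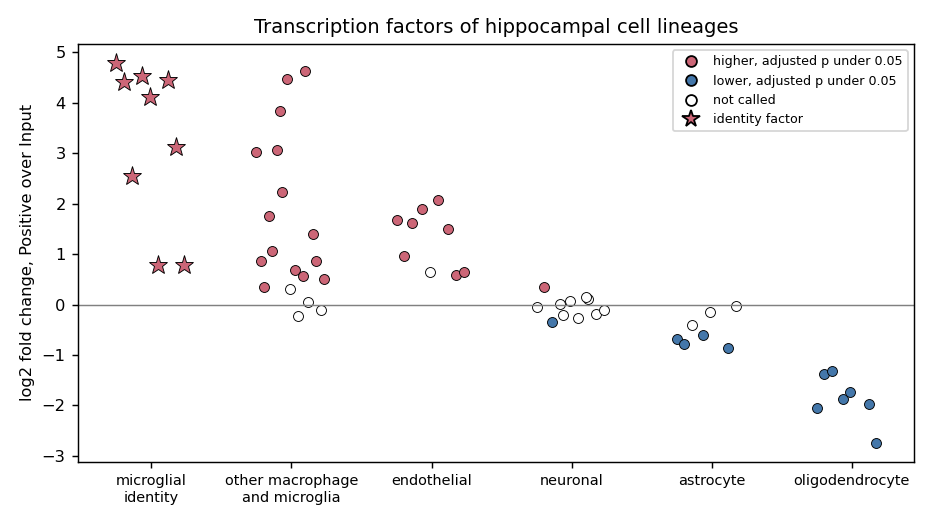
Log2 fold change of Positive over Input (edgeR) for the 9 microglial factors (stars). Circles are other macrophage and microglia factors and factors of other lineages. Red marks genes that rose, blue genes that fell and white genes not called. Medians of the columns are 4.11 in the 9 microglial factors, 0.87 in the other macrophage and microglia factors and 1.49 in endothelial factors. Neuronal factors have -0.039, astrocyte factors -0.60 and oligodendrocyte factors -1.87.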

How the data were processed

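RNA-seq libraries of Input and Positive hippocampal TRAP fractions from 3 mice were compared, with groups taken from the fraction label. The authors prepared directional poly(A) libraries, aligned them to mm10 in Strand NGS by strand and kept genes that reached 20 raw reads in all libraries of a fraction. Genes below it were not used here. The authors deposited estimated counts per gene, which are not always whole, beside log2 values deposited after scaling by DESeq, which the submitters' processing notes name.

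Counts were rounded and tested in R 4.3.3 with edgeR 4.0.16 (quasi-likelihood, RLE scaling, unpaired as in the study), with Benjamini-Hochberg adjustment over 15343 genes and a threshold of 0.05. Another 45 genes were left out because neither fraction had more than 20 scaled reads in all its libraries. SE was taken as the absolute log2 fold change divided by the square root of the F statistic of the quasi-likelihood test. Where all Input libraries had at most 3 reads, folds were taken against 3 reads per library, a limit that covers counting error only. Depth, summed over the deposited genes, was 14879734 to 17757918 reads per library. Levels per kb used the joint length of all exons annotated for a gene in GENCODE for GRCm38. No exon of the 9 genes overlapped one of another gene on the same strand, and those of Irf5, Mef2a, Runx1 and Cebpa overlapped genes on the opposite strand, which strand-aware counting separates. Labels give the same animal numbers in both fractions, so the libraries were paired by animal, and deviations of same-animal libraries from the fraction means correlated at 0.274, 0.085 and 0.15. The steps were tested on simulated data. Alternatives were TMM and total count scaling, DESeq2 1.42.0, limma 3.58.1 on the deposited log2 values, other filters, an animal block and leaving out each library.

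The 9 factors and all gene lists were chosen with earlier results of these data known, so no list was tested as a set. From each list the 4 genes with the highest mean scaled reads, and those called against the majority, were named. For Spi1, Mef2a and Mef2c the 3 nearest genes were named. A few genes taken by these rules are not reported.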

Additional observations from a re-analysis of the deposited data

How the results depend on the processing

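All 9 factors rose under each of the 13 alternatives, with 0 falling. Their median log2 fold change was 3.97 to 4.21, and the highest adjusted p was 0.00804, for Mef2c, whose change ranged from 0.68 to 0.96. For Spi1 the range was 4.64 to 4.91 and for Mef2a 0.70 to 0.83. With the animal as a replicate block 7570 genes differed, against 7051 without it, and 9 of the 9 factors rose. Among the genes named, the block changed no call beyond those given with their values above. Under total count scaling 7319 genes differed, of which 41.6% rose, against 52.1%. The depth of the Input limits Runx1, with 8 to 18 reads per library.

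Directions that turned were all of values that did not pass the test. Total count scaling gave -0.06 for Sall2, -0.022 for Bhlhe40 and -0.015 for Bcl11b, and Sall2 was -0.011 where genes needed 100 scaled reads on average, and -0.00016 by limma. Leaving out 1 library gave ranges of -0.027 to 0.061 for Sall2, -0.082 to 0.082 for Cbfa2t2 and for the median of the RUNX complex, -0.021 to 0.13 for Bhlhe40, -0.083 to 0.069 for Irak1, -0.056 to 0.13 for Bcl11b, -0.0058 to 0.18 for Neurod6, -0.091 to 0.049 for Nfib and -0.17 to 0.095 for the median of neuronal factors. The cause was not tested. By limma the calls of Elk1 (adjusted p = 0.0883) and Irf3 (0.0762) were lost. Hdac4 (0.012), Hdac7 (0.0436), Zbtb18 (0.0178) and Neurod2 (0.0478) were called lower under total count scaling, Hdac4 (0.0277) and Zbtb18 (0.0385) with the filter of 100 reads and Zbtb18 (0.0367) by DESeq2. Over all results, 28 alternatives of a gene lost a call and 21 gained one.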
